A study of Mus musculus with 6 samples.

Results

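The enzymes described here are 7 steps of cholesterol synthesis: Hmgcs1, Fdps, Fdft1, Sqle, Lss, Cyp51 and Dhcr7. They were taken by gene symbol, and each matched 1 of the 55549 rows of the gene tables. The samples were mouse early 2-cell embryos. Control embryos were compared with embryos cultured from 4 h after fertilization with 40 uM ethylparaben (EtP), a paraben preservative found in cosmetics. Each group had 3 Smart-seq2 libraries of polyadenylated RNA, and most exposed embryos stopped at this stage according to the series' design text. The labels give no strain, number of embryos per library, separate cultures or hour of collection. The p-values therefore measure only how far these libraries vary, possibly for technical reasons, and exposure and age at collection cannot be told apart.

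Cholesterol is built from acetyl-CoA through mevalonate and squalene, and the first ring-shaped product, lanosterol, is then trimmed and rearranged in the endoplasmic reticulum. The genes of the pathway are classic targets of SREBP-2, the product of Srebf2, which is held back by sterols and freed when sterols are scarce. Mouse oocytes are known to make little cholesterol themselves and to receive it from the surrounding cumulus cells, and the early embryo starts with messages stored by the oocyte. Transcription from the embryonic genome becomes prominent in the course of the 2-cell stage.

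Of the 7 enzymes, Hmgcs1 and Fdft1 rose in EtP embryos and Fdps and Cyp51 fell (edgeR quasi-likelihood test with Benjamini-Hochberg adjustment over all 14373 genes tested, adjusted p below 0.05). Sqle, Lss and Dhcr7 did not pass the test. Both enzymes that rose were far above the other 5 in abundance in every library. Over all genes tested 12.5% were called higher and 18.1% lower, so 2 higher and 2 lower among 7 is not a count that sets these enzymes apart. One of the lower calls, Cyp51, entered the test only through the control libraries. The median log2 fold change was -0.57 for the 7 enzymes and -0.19 for all genes tested. The CPM of the groups did not overlap for Hmgcs1 and Fdft1 on the higher side and for Fdps, Sqle and Cyp51 on the lower side, and over all genes tested 19.0% were higher and 27.9% lower without overlap.

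The libraries held 11173295 to 14737152 estimated counts. At least 1 count was found for 25861 to 26004 rows in control and 19244 to 19613 rows in EtP libraries. This difference in RNA composition affects every fold change. The scaling factors of edgeR (TMM) lay between 1.20 and 1.39 for control and between 0.74 and 0.83 for EtP libraries, and scaling by library size alone moved the median of all genes by -0.73 on the log2 scale. With that scaling 3.79% of genes were called higher and 53.0% lower, 93.3% of all calls being lower in place of 59.1%. Among the 7 enzymes the 2 higher calls stood and the other 5 were all called lower. The 10 egg and early embryo markers had counts in every library and summed to 6735 to 9718 CPM in control and 22690 to 25330 CPM in EtP. Of the 10, 8 were called higher and 2 were not called, against 4 higher and 1 lower when scaled by library size alone. Cumulus and granulosa markers summed to 46.0, 23.4 and 18.8 CPM in control and to 17.6, 19.0 and 19.6 CPM in EtP libraries. Cyp19a1 made up most of this sum and overlapped between groups (13.2 to 35.3 and 15.6 to 18.5 CPM), while the other 15 summed to 10.6, 5.50 and 5.58 CPM in control and 1.93, 1.77 and 1.16 CPM in EtP, lower in every EtP library. Amh and Ptx3 of the 16 were at 0 in all libraries, 6 more (Areg, Cd44, Foxl2, Inha, Inhba and Tnfaip6) only in EtP, and of 5 tested 3 were lower, all 3 tested only through the control libraries. Sperm markers summed to 59.5 to 133 CPM in control and 107 to 134 CPM in EtP, of which Odf2 gave 44.5 to 125 and 102 to 130 CPM. The other 9 summed to 15.1, 9.78 and 7.14 CPM in control and 4.05, 4.53 and 3.73 CPM in EtP, again lower in every EtP library. Smcp and Tnp1 of the 10 were at 0 in all libraries, and of 3 tested 1, Prm2, was lower. The part of other cells' RNA in the results below was not tested. In RNA of whole embryos, fewer cells holding a message and less message per cell cannot be told apart.

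SREBP-2 is known to bind sterol regulatory elements close to the start of its target genes, together with the factors NF-Y, which binds CCAAT, and Sp1, which binds GGGCGG. RefSeq windows of 250 bases before to 50 bases after the gene start (GRCm38.p6) were found for Hmgcs1, Lss, Cyp51 and Dhcr7, while Fdps, Fdft1 and Sqle had none in the table used. The letters TCACNCCAC, read on both strands, occur in 408 of 32851 windows (1.24%), and the looser TCACNNCA, which includes all of those, in 13.8%. The windows of an enzyme that rose, one that fell and one that was not called are shown 5′ to 3′ on the strand of the gene, with a match to either form in capitals. They lie at chr13:119690101-119690400 (plus strand), chr5:4104648-4104947 (minus strand) and chr10:76531355-76531654 (plus strand).
Hmgcs1: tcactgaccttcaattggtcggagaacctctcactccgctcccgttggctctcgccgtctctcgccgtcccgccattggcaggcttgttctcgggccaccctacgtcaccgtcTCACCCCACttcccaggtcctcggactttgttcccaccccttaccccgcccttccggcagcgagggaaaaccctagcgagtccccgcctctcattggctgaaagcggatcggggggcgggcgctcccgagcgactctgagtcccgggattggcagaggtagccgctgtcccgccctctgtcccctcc
Cyp51: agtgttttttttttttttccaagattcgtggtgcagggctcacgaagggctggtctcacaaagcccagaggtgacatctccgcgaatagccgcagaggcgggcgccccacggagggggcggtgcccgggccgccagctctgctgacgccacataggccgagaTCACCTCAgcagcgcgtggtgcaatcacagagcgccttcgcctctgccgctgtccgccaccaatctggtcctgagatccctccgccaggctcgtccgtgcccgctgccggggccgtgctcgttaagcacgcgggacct
Lss: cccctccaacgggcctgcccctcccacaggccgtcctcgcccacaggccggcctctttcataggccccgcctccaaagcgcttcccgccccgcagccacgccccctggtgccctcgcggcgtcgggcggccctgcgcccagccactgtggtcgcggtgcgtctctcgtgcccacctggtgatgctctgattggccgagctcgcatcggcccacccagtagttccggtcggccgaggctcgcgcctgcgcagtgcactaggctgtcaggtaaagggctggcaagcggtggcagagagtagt
The Hmgcs1 match TCACCCCAC begins 137 bases before the start, and the Cyp51 match TCACCTCA begins 88 bases before it. The Lss window holds neither form. Dhcr7 has 3 windows in the table, of which 2 hold the looser form. All 4 enzymes have CCAAT and GGGCGG in a window, counted per gene over any of its windows. For Dhcr7 only window 3 holds CCAAT. Counted per window and not per gene, 37.4% and 35.7% of all windows hold them. Of the 13 other cholesterol enzymes with a window, 0 hold the longer form and 5 the looser one. A match is a run of letters, and binding was not measured.

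Hmgcs1 (chromosome 13, 119690379 to 119708260, plus strand, mm10, GENCODE M21) joins acetoacetyl-CoA with acetyl-CoA, an early step on the way to mevalonate. Control libraries held 8621, 16144 and 12756 estimated counts and EtP libraries 23325, 17972 and 22317. Scaled by TMM, this was 517, 854 and 828 CPM in control and 2251, 1986 and 1848 CPM in EtP. All EtP libraries lay above all control libraries, and the first control library was the lowest. Hmgcs1 rose 2.77-fold (log2 fold change 1.47 ± 0.24 SE, adjusted p = 0.0014). Its TPM, the deposited level per transcript length, was 270, 533 and 555 in control and 962, 869 and 883 in EtP, a ratio of means of 2.00. By TPM the gene ranked between 261 and 538 among all rows in control and between 170 and 183 in EtP.

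Fdft1 (chromosome 14, 63145150 to 63179578, minus strand) encodes squalene synthase, which joins farnesyl diphosphate into squalene and commits it to sterols. Control libraries held 3500, 4262 and 3393 estimated counts and EtP libraries 7154, 4866 and 7955. The CPM values were 210, 225 and 220 in control and 691, 538 and 659 in EtP. The control values were close together and the groups stood well apart. Fdft1 rose 2.88-fold (log2 fold change 1.52 ± 0.20 SE, adjusted p = 0.00039), and its TPM went from 151 ± 22.5 to 323 ± 39.5 (SD, n = 3). The calls of Hmgcs1 and Fdft1 held without each library in turn and with library size alone, where their log2 fold changes were 0.72 (adjusted p = 0.026) and 0.79 (adjusted p = 0.0080). Because the libraries do not mark strand, reads in shared stretches are uncertain. Within Hmgcs1 lies the antisense gene Gm48342, with 25.5 to 54.7 counts in control and 69.0 to 103 in EtP, and the end of Fdft1 overlaps Ctsb on the other strand, with 159 to 229 counts over all libraries.

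**Figure D1:**
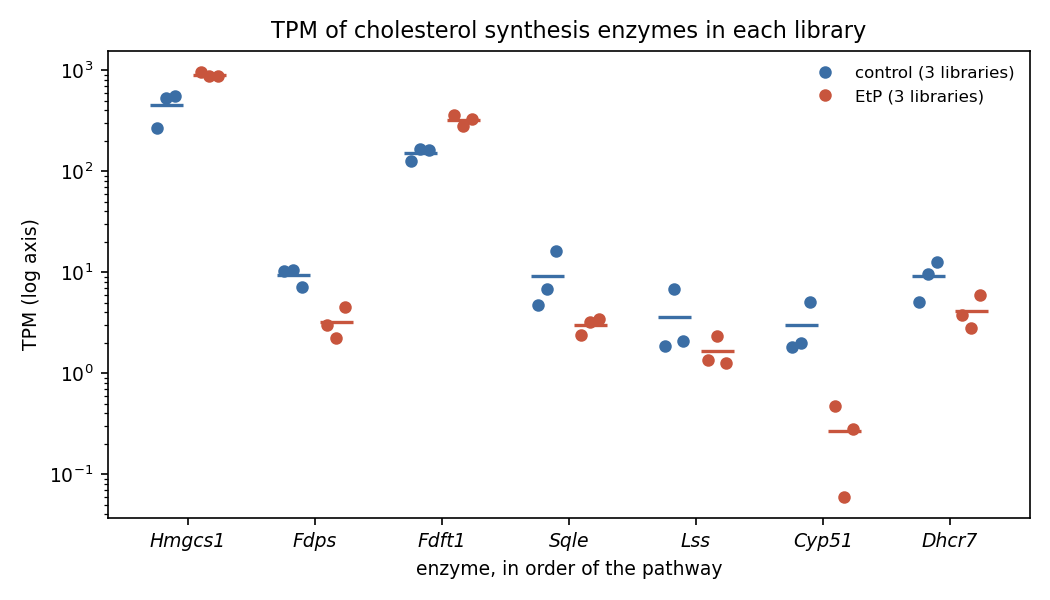
TPM of each enzyme in each library on a log axis, in pathway order, with 3 control and 3 EtP libraries as points and the group mean as a bar. Hmgcs1 and Fdft1 sit above 100 TPM in every library and higher in EtP, while the other 5 enzymes lie below 20 TPM.

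Fdps (chromosome 3, 89093588 to 89101959, minus strand) makes the farnesyl diphosphate that Fdft1 uses, which is also the branch point to protein prenylation, dolichol and ubiquinone. Its estimated counts were 151, 135 and 75.7 in control and 33.0, 22.4 and 52.0 in EtP. The CPM values were 9.06, 7.14 and 4.93 in control and 3.19, 2.43 and 4.31 in EtP, so the groups lay apart, but only narrowly between the third libraries. Fdps fell 2.11-fold (log2 fold change -1.08 ± 0.34 SE, adjusted p = 0.034). This call rests on single libraries: the adjusted p was 0.083 without control library 1, 0.11 without control library 2, 0.13 without EtP library 1 and 0.15 without EtP library 2. With RLE scaling it was 0.051. Counts that are not whole show that some fragments were shared with other rows, and the gene Gm43738 overlaps it on the same strand, with 3.08 counts in 1 control library and 0 in the others.

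Sqle (chromosome 15, 59315077 to 59331192, plus strand) encodes squalene epoxidase, an oxygen-requiring and rate-controlling step after Fdft1. Its counts were 155, 201 and 348 in control and 67, 78 and 94 in EtP. The CPM values were 9.30, 10.6 and 22.6 in control and 6.47, 8.62 and 7.78 in EtP. The groups did not overlap, but the third control library was more than 10 CPM above the others. The log2 fold change was -0.89 ± 0.35 SE with an adjusted p of 0.079, so Sqle was not called. Without the third control library it was -0.34 (adjusted p = 0.38), and without the first it was -1.02 (adjusted p = 0.019).

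Lss (chromosome 10, 76531588 to 76557138, plus strand) closes squalene epoxide into lanosterol. Its counts were 73, 106 and 73 in control and 47, 42 and 57 in EtP, or 4.38, 5.61 and 4.74 CPM against 4.54, 4.64 and 4.72 CPM. The groups overlapped after TMM scaling, with a log2 fold change of -0.08 ± 0.27 SE (adjusted p = 0.84). Scaled by library size alone it was -0.81 (adjusted p = 0.036), close to the shift of all genes.

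Cyp51 (chromosome 5, 4081145 to 4104746, minus strand) removes the 14-alpha methyl group of lanosterol. Its counts were 33, 22 and 41 in control and 4, 2 and 5 in EtP, or 1.98, 1.16 and 2.66 CPM against 0.386, 0.221 and 0.414 CPM. Every EtP library was below every control library. Cyp51 fell 5.44-fold (log2 fold change -2.44 ± 0.52 SE, adjusted p = 0.0056), and the call held without each library in turn. It entered the test only through the control libraries, since none of the EtP libraries reached the minimum, and the EtP level rests on 11 counts in all. Akap9 overlaps its end on the other strand, with 212 to 386 counts.

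Dhcr7 (chromosome 7, 143823145 to 143848410, plus strand) catalyses the last step to cholesterol from 7-dehydrocholesterol. Its counts were 119, 224 and 193 in control and 73, 44 and 112 in EtP, or 7.14, 11.8 and 12.5 CPM against 7.05, 4.86 and 9.27 CPM. The first control library lay among the EtP libraries. The log2 fold change was -0.57 ± 0.32 SE (adjusted p = 0.21), and with library size alone it was -1.30 (adjusted p = 0.011).

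The balance between enzymes within a library does not depend on how libraries are scaled against each other. The TPM of the 7 enzymes summed to 420, 736 and 760 in control and to 1332, 1161 and 1227 in EtP libraries. Hmgcs1 and Fdft1 together took 94.6% ± 0.47 of this sum in control and 99.0% ± 0.22 in EtP libraries (SD, n = 3). The other 5 took 5.67%, 4.87% and 5.71% in control and 0.825%, 0.919% and 1.25% in EtP. The lowest control share was thus several times the highest EtP share.

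**Figure D2:**
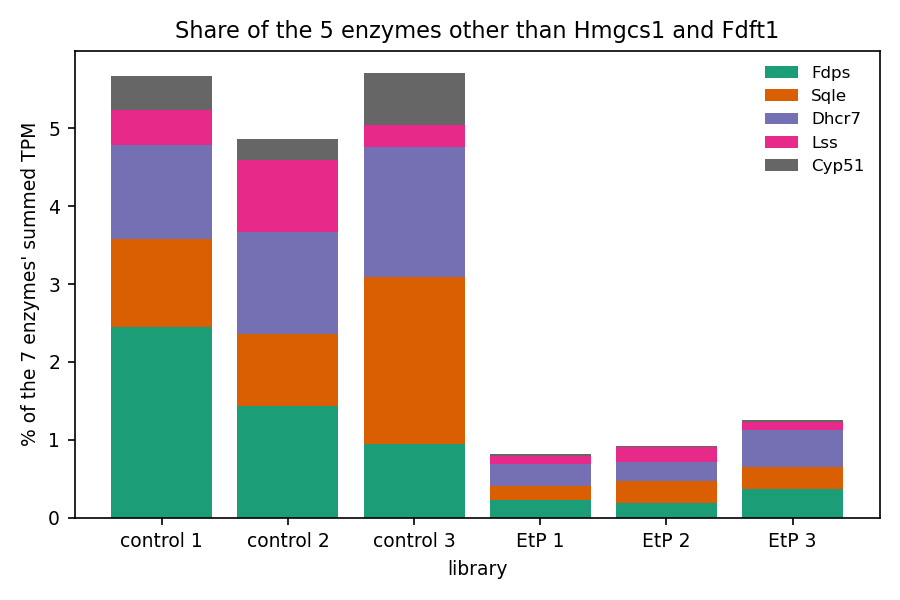
Share of the summed TPM of the 7 enzymes taken by Fdps, Sqle, Dhcr7, Lss and Cyp51, stacked, in each library. The stacks reach 4.87% to 5.71% in the 3 control libraries and 0.825% to 1.25% in the 3 EtP libraries, and the rest of the sum is Hmgcs1 and Fdft1.

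Each of these 5 enzymes held a smaller share in every EtP library than in any control library (exact two-sided permutation p = 0.1 for each, the smallest that 3 against 3 allows, and 0.14 adjusted over the 7 enzymes). Since Hmgcs1 and Fdft1 make up nearly all of the sum and were higher in EtP, the share of an enzyme at a constant level falls too. A smaller share is thus a change relative to those enzymes, as for Lss and Dhcr7, whose CPM values overlapped. The share tests are therefore not separate evidence of a fall. Fdps went from 1.61% ± 0.77 to 0.261% ± 0.094, Sqle from 1.40% ± 0.65 to 0.246% ± 0.057 and Dhcr7 from 1.40% ± 0.25 to 0.336% ± 0.13 (SD, n = 3). Lss went from 0.549% ± 0.34 to 0.135% ± 0.056 and Cyp51 from 0.459% ± 0.20 to 0.0211% ± 0.015. The shares of Hmgcs1 (70.0% ± 4.8 and 73.0% ± 1.6) and Fdft1 (24.6% ± 4.6 and 26.0% ± 1.6) overlapped between groups (exact permutation p = 0.6 and 0.7, both 0.7 adjusted).

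The ratios between some neighbouring steps differed. The TPM ratio of Fdft1 to Fdps, the enzyme that makes its substrate, was 12.2, 15.8 and 22.3 in control and 121, 126 and 72.8 in EtP libraries. The ratio of Fdft1 to Sqle, the enzyme after it, was 26.6, 24.5 and 9.89 in control and 150, 86.8 and 96.6 in EtP. In both ratios all EtP libraries were above all control libraries. The ratio of Hmgcs1 to Fdft1 was 2.16, 3.19 and 3.45 in control and 2.68, 3.09 and 2.68 in EtP, so these enzymes kept overlapping ratios. These ratios use the same counts as the fold changes and are not separate evidence.

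Of the 13 other enzymes of the route from acetyl-CoA to cholesterol that are reported here, 11 were tested, 0 were higher, 1 lower and 10 not called (edgeR), with a median log2 fold change of 0.12. Over all genes tested the shares were 12.5% and 18.1%. At an unadjusted p under 0.05 1 was higher, and DESeq2 and limma-voom called 0 higher. Limma on log2(TPM + 1) and log2(TPM + 0.1) called 5 and 4 lower, where 6195 and 6190 of all 14373 genes were lower. The sign of the median depended on the setting. It was -0.54 in both TPM fits, -0.61 with library size alone and -0.13 without the filter. With RLE or upper-quartile scaling, DESeq2 and limma-voom it stayed positive. Without control library 1 edgeR called 3 higher and 2 lower, where 2637 of all 14948 genes tested were higher and 2890 lower. Nsdhl, which takes part in removing the C4 methyl groups, fell from 171, 119 and 106 CPM to 64.4, 42.0 and 62.3 CPM (log2 fold change -1.23 ± 0.26 SE, adjusted p = 0.0058). All EtP libraries were below all control libraries, and the call held without each library in turn. With library size alone 6 of the 11 were lower, near the 53.0% of all genes.

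Of the other enzymes around mevalonate, those given here were sparse or not called. Mvk, which phosphorylates mevalonate, had 8, 26 and 20 counts in control and 1, 3 and 0 in EtP. Pmvk, the kinase after it, had 3, 9 and 5 against 0, 3 and 1. Neither passed the filter of the main fit. With no filter on low counts, 2 of the other cholesterol enzymes were called lower. These were Nsdhl and either Mvk or Pmvk, since no other enzyme of this list gained a call there. Which of Mvk and Pmvk was called is not given here. In the main fit the log2 fold change of Acat2, the thiolase of the first step, was -0.38 (adjusted p = 0.31). It was -0.35 for Mvd, which makes isopentenyl diphosphate (adjusted p = 0.51), and -0.18 for Idi1, its isomerase (adjusted p = 0.59). Idi1 was well expressed at 99.6 to 155 CPM in control and 95.3 to 126 CPM in EtP. After lanosterol, the values were 0.93 for Tm7sf2 and 0.51 for Lbr, the sterol C14 reductases, and 0.49 for Msmo1, the C4 methyl oxidase (adjusted p = 0.16, 0.11 and 0.15). They were 0.13 for Hsd17b7, 0.12 for Erg28, -0.62 for Ebp, the sterol isomerase, and 0.33 for Sc5d, the C5 desaturase (adjusted p = 0.74, 0.70, 0.28 and 0.30).

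**Figure D3:**
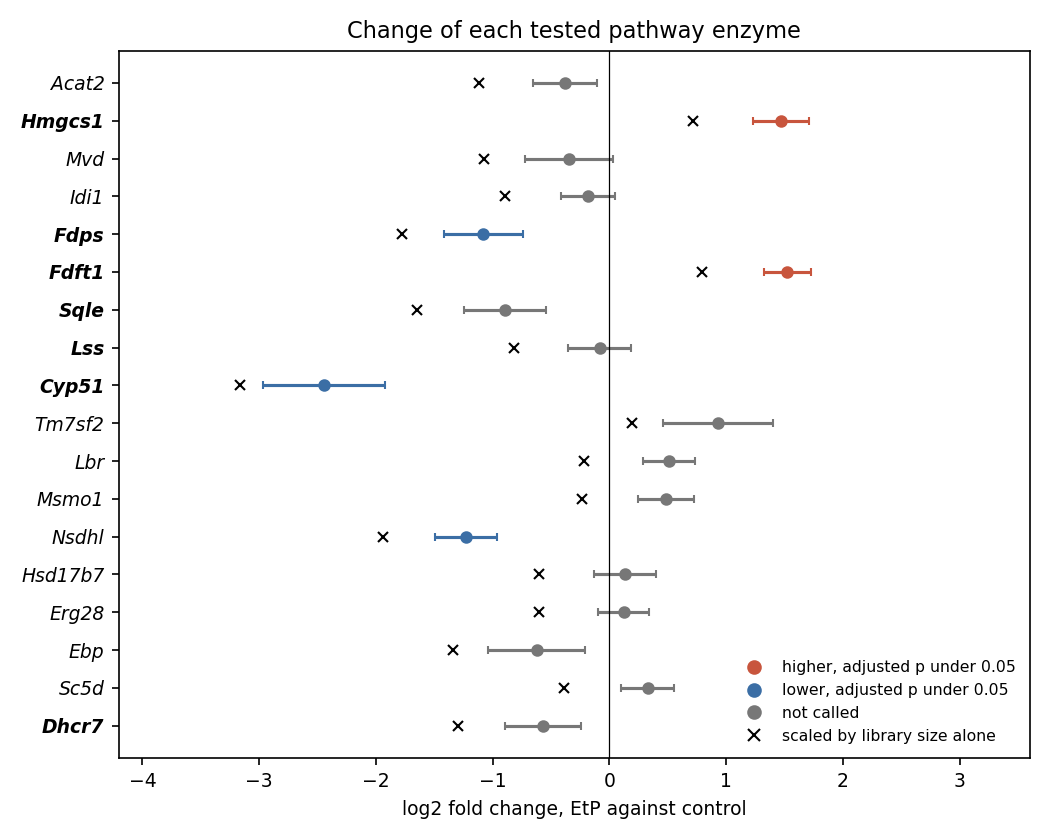
Log2 fold change of EtP against control with its standard error for the 7 enzymes (bold) and the 11 other tested enzymes in pathway order, with crosses for scaling by library size alone. Hmgcs1 and Fdft1 are higher, Fdps, Cyp51 and Nsdhl are lower, and each cross lies to the left of its point.

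Of 20 genes of the machinery that senses sterols, 19 were tested, 4 were higher and 3 lower, with a median log2 fold change of -0.02. Across all genes 12.5% were higher and 18.1% lower, so these counts are near the background. Srebf2, the transcription factor of the pathway, was abundant at 1037, 964 and 406 CPM in control and 1725, 2636 and 1459 CPM in EtP. It rose with a log2 fold change of 1.27 ± 0.35 SE (adjusted p = 0.020), a call lost without EtP library 2 (adjusted p = 0.089). Under library-size scaling it was 0.56 (adjusted p = 0.14). Insig1, which retains SREBP in the endoplasmic reticulum and is itself a SREBP target, was at 58.8, 106 and 120 CPM in control and 81.6, 75.0 and 103 CPM in EtP. Its groups overlapped (log2 fold change -0.14, adjusted p = 0.74). Insig2, the other retention protein, had -0.83 (adjusted p = 0.065), and Scap, the escort of SREBP, had 0.88 (adjusted p = 0.077).

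In the main fit the proteases that free SREBP in the Golgi were called in opposite directions, but the call of Mbtps1 depended on the scaling. Mbtps1, which cuts first, rose by 0.83 (adjusted p = 0.039), and Mbtps2, which cuts second, fell from 66.2, 71.1 and 60.9 CPM to 45.8, 34.5 and 32.0 CPM (log2 fold change -0.82, adjusted p = 0.018). Vcp, the ATPase that pulls ubiquitinated proteins out of the membrane of the endoplasmic reticulum, rose from 24.5, 25.5 and 26.4 CPM to 74.4, 61.6 and 77.7 CPM (log2 fold change 1.48 ± 0.21 SE, adjusted p = 0.00061). March6, a ubiquitin ligase that acts on squalene epoxidase, rose by 1.00 (adjusted p = 0.019). Nr1h2, the oxysterol receptor LXR beta, fell by 1.08 (adjusted p = 0.017), and Ufd1, a cofactor of Vcp, fell by 0.83 (adjusted p = 0.048). Of these 6 calls only that of Vcp held without each library in turn. That of Mbtps1 was lost without control library 3 or any EtP library (adjusted p up to 0.11), and that of Mbtps2 without control library 2, EtP library 2 or EtP library 3 (up to 0.10). That of March6 was lost without control library 2 or EtP library 3 (up to 0.072), and that of Nr1h2 without control library 2 or any EtP library (up to 0.079). Ufd1 stayed called only without control library 3 (up to 0.19 otherwise). With all libraries, its call was lost with RLE scaling, no filter on low counts, DESeq2 and limma-voom. With library size alone edgeR did not call Mbtps1 (0.11, adjusted p = 0.74) or March6 (0.26, adjusted p = 0.49). Both also lost their calls with the filter at 10 CPM and with limma on log2 TPM, and Mbtps1 with upper-quartile scaling. The mean TPM of Mbtps1 was 5.48 in control and 5.55 in EtP.

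**Figure D4:**
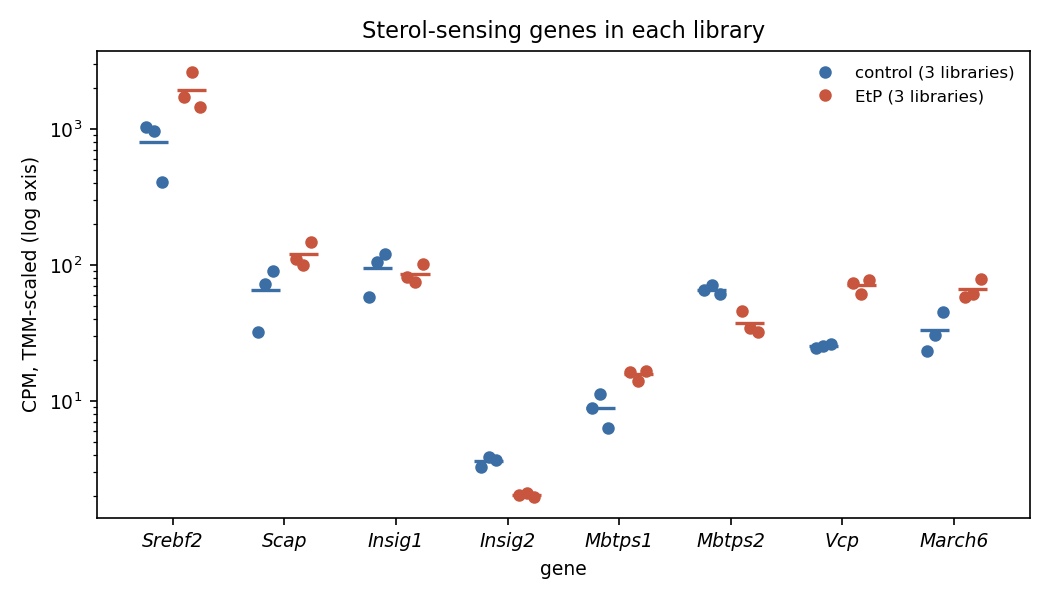
CPM (TMM-scaled, log axis) of 8 sterol-sensing genes in each library, with points for 3 control and 3 EtP libraries and bars for means. Srebf2, Scap, Mbtps1, Vcp and March6 lie higher in all EtP libraries, Insig2 and Mbtps2 lower, and Insig1 overlaps. Scap, Insig1 and Insig2 were not called.

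Genes that take up, move and store cholesterol included 4 higher and 2 lower calls. Of the 20 genes reported here 13 were tested, and the median log2 fold change was 0.10. Over all genes tested 12.5% were higher and 18.1% lower, so the lower calls are near the background. Abcg1, a sterol exporter, rose by 1.34 (adjusted p = 0.0082), Soat1, which esterifies cholesterol for storage, by 0.96 (adjusted p = 0.0091), and Stard5, a sterol carrier, by 0.94 (adjusted p = 0.0064). Npc1, which releases cholesterol from lysosomes, rose by 0.91 (adjusted p = 0.032), a call lost without EtP library 2 or 3 (adjusted p up to 0.12). The HDL receptor gene Scarb1 fell from 5.88, 6.77 and 4.35 CPM to 2.41, 2.65 and 2.15 CPM (log2 fold change -1.24, adjusted p = 0.013). Lipa, the lysosomal acid lipase gene, was tested only through the control libraries and called lower, at 0.780, 1.85 and 0.779 CPM in control and 0, 0 and 0.248 CPM in EtP. Each of these 2 lower calls was lost without 1 of 3 libraries, with adjusted p up to 0.078 for Scarb1 (without control library 2, EtP library 1 or EtP library 3) and 0.065 for Lipa (without control library 2, EtP library 1 or EtP library 2). The 4 higher calls were lost with library size alone, where the log2 fold changes were 0.60 for Abcg1, 0.23 for Soat1, 0.20 for Stard5 and 0.18 for Npc1.

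Fdps products also feed other branches. All 14 genes for prenylation, dolichol and ubiquinone were tested, 3 were higher and 0 lower, with a median log2 fold change of 0.29 (edgeR), where 12.5% of all genes were higher and 18.1% lower. At an unadjusted edgeR p under 0.05, 3 were lower (Rabggtb, Fntb and Dhdds). Icmt and Nus1 were higher at that cutoff, besides the 3 higher calls. The share of all genes at that cutoff was not counted. DESeq2 called 5 higher and 0 lower, limma-voom 3 and 0, upper-quartile scaling 3 and 1, and the replicate block 4 and 1. The filter at 10 CPM, which not all 14 pass, called 0 higher and 2 lower, and limma on log2 TPM 0 and 4. Over all genes, higher and lower calls were 2301 and 2358 with DESeq2, 1803 and 2448 with limma-voom and 1589 and 2916 with upper-quartile scaling. They were 2296 and 3024 with the replicate block. The filter gave 978 and 1453 of 6986 genes, and limma on log2(TPM + 1) 698 and 6195 of 14373. Rce1 and Zmpste24, proteases that trim prenylated proteins, rose by 1.01 and 0.75 (adjusted p = 0.014 and 0.017), and Rabggta, a subunit of the Rab prenyl transferase, by 1.33 (adjusted p = 0.015). Rabggtb, the other subunit, had -0.96 (adjusted p = 0.060), with 4.26, 5.39 and 3.83 CPM in control and 1.93, 3.32 and 1.74 CPM in EtP. It was called lower with upper-quartile scaling and with the replicate block. Rce1 and Zmpste24 were not called without EtP library 1 or 2 (adjusted p up to 0.058 and 0.059), nor Rabggta without control library 2 or EtP library 2 (up to 0.068). Icmt, which methylates prenylated proteins, had 0.80 (adjusted p = 0.077), and Fntb, the farnesyltransferase beta subunit, had -0.74 (adjusted p = 0.080). Scaled by library size alone, none of the 14 was higher and 5 were lower, against 3.79% and 53.0% of all genes.

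Profiles over the 6 libraries were compared with that of each called enzyme by the root mean square distance of centred log2 CPM. The nearest genes were sought among 5928 with a mean of at least 10 CPM, an Ensembl ID and no predicted-locus or clone symbol. For Hmgcs1 these were Gtf2h1 (distance 0.049) and Fubp1 (0.056), and for Fdft1 they were Vcp (0.051) and Riox2 (0.062). For Fdps they were Etv1 (0.13) and Elovl7 (0.14). For Cyp51 the nearest, Snrpc (0.33) and Mlxipl (0.34), were much farther away. Cyp51, with 4, 2 and 5 counts in EtP, and Fdps averaged below the 10 CPM asked of the compared genes. Whether low counts widen their distances was not tested. All profiles share the same 6 libraries and the difference between groups.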

How the data were processed

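Polyadenylated RNA was amplified by Smart-seq2 with oligo-dT priming and sequenced as paired reads without strand marking, per the labels' protocols. Per the submitters' processing notes, cutadapt 1.16 and STAR were used, with build mm10. No version of STAR and no counting program is given in the sources used here. The expected count in the deposited tables is an estimate of a gene's fragments made by the authors. Between 10.6% and 16.0% of rows were not whole (tolerance 0.005), and counts were rounded for testing. The deposited TPM is the authors' level per length and depth. The deposited gene length and effective length, which are other values of the authors, were used to describe TPM. Of the rows, 214 carry no Ensembl ID and hold 0.648% to 1.37% of counts.

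EtP was compared with control by edgeR 4.0.16 (R 4.3.3): filterByExpr with a minimum count of 10, TMM, robust quasi-likelihood, Benjamini-Hochberg adjustment over all genes tested. SE was taken as |log2 fold change| over the root of F, and CPM from TMM-scaled sizes. Shares of TPM were compared by exact two-sided permutation tests. The edgeR step alone was also run on simulated data. That simulation held no shift in RNA composition between groups, so it does not cover the shift seen in these libraries. Promoter windows are from RefSeq (GRCm38.p6) and positions from GENCODE M21. DESeq2 1.42.0 and limma 3.58.1 served as alternatives, with other scalings, filters and thresholds and each library left out. One alternative, leaving out rows with no Ensembl ID, was chosen after seeing the data.

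The members and gene lists were chosen with earlier results of these data known. Named were all members and the other cholesterol enzymes listed, per further list up to 4 genes of smallest p among those averaging at least 5 CPM, and the 2 nearest profiles of each called member. Srebf2, Insig1, Insig2, Scap, Mbtps1, Ufd1, Npc1, Scarb1, Lipa, Rabggta, Rabggtb, Dhdds, Nus1 and Scd2 were named after their values were seen. Some genes of these lists are not reported here. No molecular identifiers marked PCR copies.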

Additional observations from a re-analysis of the deposited data

How the results depend on the processing

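The calls of Hmgcs1 and Fdft1 were the same in 18 alternatives and that of Cyp51 in the 17 that tested it, with log2 fold changes of 0.72 to 1.67, 0.79 to 1.67 and -3.17 to -1.56. Fdps lost its call with RLE scaling (-1.0) and at a threshold of 0.01 (-1.08), and leaving out single libraries gave -1.28 to -0.77. Sqle gained a call with library size alone (-1.65), no filter (-0.84), at least 10 CPM in 3 libraries (-1.15), limma on log2(TPM + 1) (-1.20) and log2(TPM + 0.1) (-1.41), and ranged from -1.02 to -0.34 without single libraries. With library size alone Lss (-0.81) and Dhcr7 (-1.30) were called. Lss changed sign with RLE scaling (0.0084) and DESeq2 (0.0079), and was -0.0662 to 0.0923 without single libraries. The share difference of Fdft1 ranged from -0.294 to 4.05 percentage points. Of the 7 enzymes, 1 (Cyp51) was lower with RLE scaling or a threshold of 0.01, 5 with library size alone, and 1 to 2 without single libraries. With no filter, both TPM fits or the replicate block 3 were lower. With at least 10 CPM, Sqle was the 1 lower call among the enzymes tested. Their median was -1.30 with library size alone, 1.21 with at least 10 CPM, which left 3 enzymes, -0.93 and -1.08 with the larger and smaller TPM pseudocount, and -0.78 to -0.32 without single libraries. Higher and lower calls over all genes were 545 and 7618 with library size alone, 978 and 1453 with at least 10 CPM, 698 and 6195 with log2(TPM + 1), 697 and 6190 with log2(TPM + 0.1) and 918 and 1404 at 0.01, and 1097 to 2637 and 1661 to 2890 without single libraries. The cause of these changes was not tested.

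Libraries with the same number did not deviate together in each pair (correlations 0.127, 0.003 and 0.273), and control library 2 did not correlate best with its own number. With the replicate block 2296 genes were higher and 3024 lower, and Sqle was called (-0.80, adjusted p = 0.037). The block changed no other call among the 7 enzymes. Depth limits Cyp51, Mvk and Pmvk, which rest on few counts in EtP, and PCR copies make counts less precise than their number.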

Other observations

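Fatty acid synthesis is another branch of lipid synthesis under SREBP control. Of 15 genes 9 were tested, 2 were higher and 1 lower, with a median log2 fold change of -0.55, where 12.5% of all genes were higher and 18.1% lower. Elovl5, which lengthens polyunsaturated fatty acids, rose from 10.1, 7.83 and 8.96 CPM to 18.3, 19.3 and 26.6 CPM (log2 fold change 1.26 ± 0.25 SE, adjusted p = 0.0041, edgeR). Me1, malic enzyme, a source of NADPH, rose from 487, 490 and 617 CPM to 1429, 877 and 947 CPM (log2 fold change 1.03 ± 0.24 SE, adjusted p = 0.0093), a call lost without EtP library 1 (adjusted p = 0.052). Scd2, a stearoyl-CoA desaturase, was tested only through the control libraries and called lower, at 2.16, 1.96 and 1.95 CPM in control and 0, 0 and 0.166 CPM in EtP. Elovl1 and Acaca had -0.56 and -0.77 (adjusted p = 0.065 and 0.086). With library size alone none of the 9 was higher and 5 were lower, near the 53.0% of all genes.

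The deposited length of some of the 7 enzymes, which divides the TPM, differed between groups. This was looked at after the values were seen. For Hmgcs1 it was 2717, 2809 and 3003 bases in control and 2411, 2387 and 2543 bases in EtP libraries, shorter in 3 of 3 EtP libraries than in any control library. Fdps (1340 ± 97.3 and 1210 ± 35.2 bases, SD, n = 3) and Dhcr7 (2083 ± 86.3 and 1903 ± 66.9 bases) were also shorter without overlap, while Fdft1 overlapped (2515 ± 219 and 2152 ± 247 bases). Among 11000 genes with a length that varied, 10.7% were shorter in all EtP libraries and 11.5% longer. The lengths of Lss, from 1503 to 4544 bases, and of Cyp51, from 929 to 3931 bases, varied widely within groups. Some of their TPM values, but not all, went with length in the inverse direction. Cyp51 had 1106 and 1141 bases in control libraries 2 and 3, but 1.99 and 5.10 TPM. Lss at 6.81 TPM in control library 2 went with the shortest of these Lss lengths, and Cyp51 at 0.06 TPM in EtP library 2 with the longest of these Cyp51 lengths. The counts, which the fold changes use, are not divided by length.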
